A study of Mus musculus with 3 samples.

Results

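Adult neurogenesis and proliferation markers are here 9 genes, taken by symbol from the 54532 genes of the deposited table. They were split into 6 neuroblast genes (Dcx, Sox11, Sox4, Neurod1, Igfbpl1, Eomes) and 3 cycle genes (Mki67, Top2a, Cdk1). All 9 were found once each. Hippocampal RNA was taken at 10 months of age from wild-type mice (WT), PS19 mice and PS19 mice with 1 Zbp1 allele lost (PS19 Zbp1+/-). All were on a C57BL/6 background. PS19 mice carry a human tau transgene under the mouse Prnp promoter and serve as a model of tau pathology, and Zbp1 encodes a sensor of Z-form nucleic acid. Sex, litter and pooling of animals are not given in the sources used here. Each genotype had 1 library, so no difference has a replicate check and no test across genes was made. Intervals below are exact, at 95%. They cover the error of counting and nothing else, and PCR copies, which no molecular identifier marks here, would make them too narrow. A ratio with its interval compares 2 libraries, not 2 genotypes. Unless said otherwise, values given as 3 numbers are in the order WT, PS19, PS19 Zbp1+/-.

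In the adult dentate gyrus, stem cells give rise to dividing intermediate progenitors, then to neuroblasts and immature granule neurons. Eomes (Tbr2) marks the intermediate progenitors. Neurod1 and the SoxC factors Sox4 and Sox11 act as these cells leave the cycle and differentiate, and Dcx, a microtubule-binding protein, marks migrating neuroblasts. Mki67, Top2a and Cdk1 are made in dividing cells of every type, so in whole tissue they also reflect glia and immune cells. This production declines with age. In bulk RNA, fewer cells of a type and less RNA per cell cannot be told apart.

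The unit is FPKM, which divides the fragments of a gene by its length and by a scaled library size. Whole reads recovered from it summed to between 16400328 and 17109734 per library. Hippocampal neuron markers were present in every library, with a summed FPKM of 284, 206 and 365 over 8 genes led by Neurod6 and Mpped1. Zbp1 itself was counted at 5, 91 and 0 reads, the last from mice labelled as carrying 1 intact allele. Xist was counted at 11062, 13350 and 0 reads and Y-linked Ddx3y at 0, 0 and 711, so genotype and sex cannot be told apart in either comparison with PS19 Zbp1+/-. Genes with any read numbered 24741, 25397 and 21408, so weakly expressed genes were sparse in PS19 Zbp1+/-. Its scaling also matters. The median log2 ratio of all protein-coding genes with 20 reads was 0.02 over PS19 and -0.01 over WT, but -0.17 and -0.16 when libraries were scaled by total reads, and -0.27 and -0.16 when scaled to equal sums of FPKM (TPM). For PS19 over WT it was -0.01, 0.02 and 0.12. Member ratios shift with these medians.

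The 6 neuroblast genes did not share one pattern. Dcx differed by less than its counting error between the 3 libraries, Sox11 and Neurod1 were lowest in PS19, Sox4 had its lowest value in WT, and Igfbpl1 and Eomes stepped down from WT to PS19 to PS19 Zbp1+/-. Of the cycle genes, Top2a was highest in PS19. Mki67 had its highest value in PS19 and Cdk1 in WT, but for both the interval of PS19 over WT included 1. The most abundant member was Neurod1 at an FPKM of 4.30 to 7.45, and the cycle genes lay below an FPKM of 0.4, at 59 reads or fewer.

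**Figure D1:**
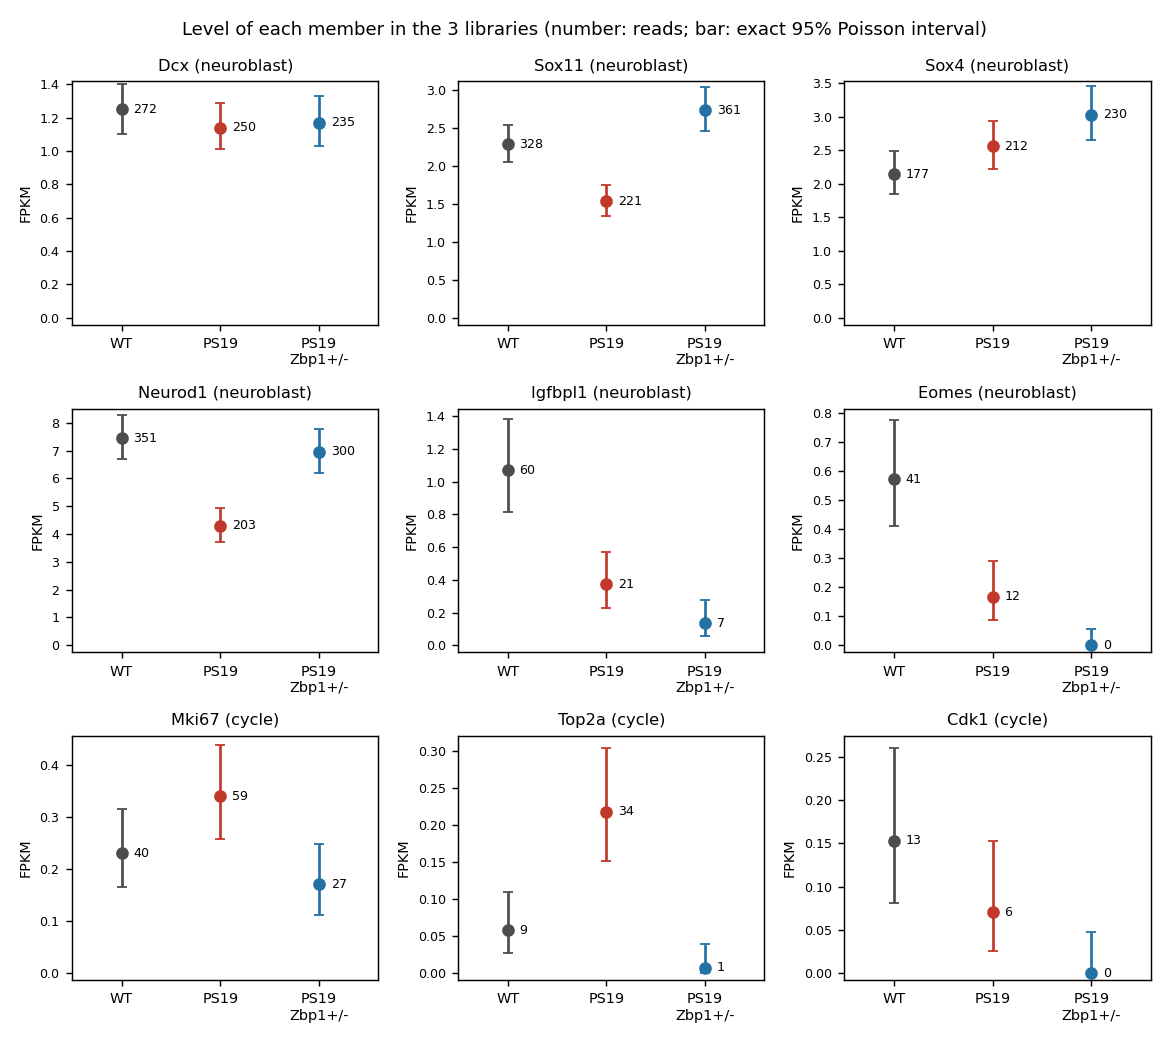
FPKM of each of the 9 members in WT, PS19 and PS19 Zbp1+/- (1 library each), on an axis from 0, with the exact 95% Poisson interval as a bar and the reads as a number. Dcx lies between 1.14 and 1.25 in all 3 libraries, while Igfbpl1 steps from 1.07 to 0.374 to 0.136 and Top2a peaks at 0.218 in PS19.

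Eomes (ENSMUSG00000032446; GRCm38 chromosome 9, 118478212 to 118486132, plus strand), the T-box factor of intermediate progenitors, was counted at 41, 12 and 0 reads. These are FPKM values of 0.572, 0.167 and 0. PS19 was 3.42-fold below WT (interval 1.77 to 7.16). PS19 Zbp1+/- was at least 12.5-fold lower than WT and at least 3.66-fold lower than PS19, taking 3 reads as the limit that a count of 0 allows, an FPKM of 0.0456. That limit leaves out the counting error of the other library. The exact intervals, which include it, start at 9.74-fold lower for WT and 2.54-fold lower for PS19. The 3 libraries stood in the order WT, PS19, PS19 Zbp1+/-, and the interval of each step left out 1. Missing reads were common in that library: among 907 protein-coding genes whose WT and PS19 counts both lay between 12 and 41, as for Eomes, 52 had none in PS19 Zbp1+/-, or 5.73% (exact Clopper-Pearson interval 4.31% to 7.45%). The same count for genes with those reads in the other libraries was 0 of 645 in WT and 0 of 792 in PS19.

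Eomes is also made by natural killer and CD8 T cells and by Cajal-Retzius neurons. The 13 T and NK cell markers, led by Ccl5 and Gzmk, summed to 31, 123 and 27 reads, so their summed level was highest where Eomes was intermediate. In WT, 6 of them, Cd3d and Cd3e among these, had 0 reads, and in PS19 Zbp1+/- 10 had 0. Their part in the Eomes values was not tested. The 7 Cajal-Retzius markers, led by Reln and Ndnf, summed to an FPKM of 6.92, 9.05 and 6.18. Trp73, of these, had 120, 153 and 42 reads, and Lhx1 had 13, 33 and 0.

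Neurod1 (ENSMUSG00000034701; chromosome 2, 79452521 to 79456751, minus strand), a bHLH factor needed for granule neuron formation and kept on in mature granule cells, had 351, 203 and 300 reads. Its FPKM was 7.45, 4.30 and 6.95. PS19 was 1.73-fold below WT (1.45 to 2.07), and PS19 Zbp1+/- was 1.61-fold above PS19 (1.35 to 1.94). PS19 was the low library. PS19 Zbp1+/- over WT was 0.932 with an interval of 0.796 to 1.09; scaled by total reads it was 0.837 (0.715 to 0.979) and scaled to TPM 0.835 (0.714 to 0.977), intervals that leave out 1. Neurod1 overlaps Cerkl on the same strand, which had 28 to 30 reads in the 3 libraries.

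Sox11 (ENSMUSG00000063632; chromosome 12, 27334264 to 27342574, minus strand) had 328, 221 and 361 reads, at an FPKM of 2.29, 1.54 and 2.74. PS19 was again lowest, 1.49-fold below WT (1.25 to 1.77), and PS19 Zbp1+/- was 1.78-fold above PS19 (1.51 to 2.12). PS19 Zbp1+/- over WT was 1.20 (1.03 to 1.40), but 1.08 with an interval that included 1 both by total reads (0.925 to 1.25) and by TPM (0.924 to 1.25). Its relative Sox4 (ENSMUSG00000076431; chromosome 13, 28948919 to 28953713, minus strand) had 177, 212 and 230 reads, at an FPKM of 2.14, 2.56 and 3.03. The intervals of both neighbouring steps of Sox4 included 1, PS19 over WT at 1.20 (0.974 to 1.47) and PS19 Zbp1+/- over PS19 at 1.19 (0.979 to 1.43). By TPM the first was 1.31 (1.07 to 1.60), and the second turned in sign, from a log2 ratio of 0.24 to -0.04. Between the ends, PS19 Zbp1+/- was 1.42-fold above WT (1.16 to 1.73). For PS19 over WT the intervals of the SoxC pair did not overlap: 0.672 for Sox11, ending at 0.800, and 1.20 for Sox4, starting at 0.974. Sox4 and Sox11 are also made by other young cells, and the 8 oligodendrocyte precursor markers, led by Olig1 and Bcas1, summed to an FPKM of 153, 212 and 188. The markers were split: Bcas1, Sox10 and Olig2 had their highest value in PS19, Olig1, C1ql1, Gpr17 and Cspg4 in PS19 Zbp1+/-, and Pdgfra in WT.

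Dcx (ENSMUSG00000031285; chromosome X, 143855842 to 143933311, minus strand) had 272, 250 and 235 reads, at an FPKM of 1.25, 1.14 and 1.17. No pair of libraries had an interval without 1: PS19 over WT was 0.917 (0.769 to 1.09), PS19 Zbp1+/- over PS19 was 1.03 (0.856 to 1.23), and PS19 Zbp1+/- over WT was 0.942 (0.788 to 1.13). The log2 ratio of PS19 Zbp1+/- over PS19, 0.04, turned to -0.15 by total reads and to -0.25 by TPM. With FPKM scaling the intervals leave room for a difference of up to 1.30-fold. Such a level profile was common. Of 10723 protein-coding genes with at least 100 reads in each library, Yif1b, Desi2 and Hnrnpr lay nearest to Dcx, at Euclidean distances of 0.002, 0.006 and 0.007 in the log2 ratios of PS19 and PS19 Zbp1+/- to WT. A distance of 0.1 held 507 genes. Interneuron neuroblasts of the ventricular zone also make Dcx, and their 7 markers, led by Dlx1, were near level too, at a summed FPKM of 24.0, 22.0 and 26.7.

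Igfbpl1 (ENSMUSG00000035551; chromosome 4, 45809468 to 45826923, minus strand), a secreted relative of the insulin-like growth factor binding proteins found in neuroblasts, had 60, 21 and 7 reads. Its FPKM was 1.07, 0.374 and 0.136. PS19 was 2.86-fold below WT (1.72 to 4.96), PS19 Zbp1+/- was 2.75-fold below PS19 (1.12 to 7.65), and PS19 Zbp1+/- was 7.86-fold below WT (3.59 to 20.4). It stood in the same order as Eomes, and the interval of each step left out 1. The summed choroid plexus markers had that order as well: 6 genes led by Ttr and Clic6 summed to an FPKM of 3113, 1904 and 10.5. Most of each sum was Ttr, at 3036, 1842 and 7.05. Of the 6 genes, 5 were lower in PS19 than in WT. The exception was Otx2, with 351, 365 and 9 reads and a PS19 over WT ratio of 1.04 (0.894 to 1.21). Ependyma markers, 5 genes led by Foxj1 and Tmem212, summed to 31.0, 26.1 and 7.0. Of these, 4 were lower in PS19 than in WT. Foxj1 was 1.26-fold higher in PS19 (1.11 to 1.44), at 424, 537 and 97 reads. The part of choroid plexus or ventricle lining in the Igfbpl1 and Eomes values was not tested.

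Of the cycle genes, Mki67 (ENSMUSG00000031004; chromosome 7, 135689784 to 135716361, minus strand), which coats mitotic chromosomes, had 40, 59 and 27 reads, at an FPKM of 0.230, 0.339 and 0.170. PS19 over WT was 1.47 with an interval that included 1 (0.969 to 2.26), and by TPM 1.61 with one that did not (1.06 to 2.47). PS19 Zbp1+/- was 2.0-fold below PS19 (1.25 to 3.28), just past the 2-fold line, and its ratio to WT, 0.736, had an interval of 0.434 to 1.23.

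Top2a (ENSMUSG00000020914; chromosome 11, 98992943 to 99024189, minus strand), the topoisomerase that untangles replicated chromosomes, had 9, 34 and 1 reads, at an FPKM of 0.0579, 0.218 and 0.00701. PS19 was 3.77-fold above WT (1.77 to 8.94). The single read in PS19 Zbp1+/- gave a ratio of 0.0321 to PS19 (0.000790 to 0.192) and of 0.121 to WT (0.00276 to 0.874). PS19 held the highest value of both Mki67 and Top2a, though for Mki67 its interval over WT included 1. Of 964 protein-coding genes whose WT and PS19 counts both lay between 9 and 34, 99 had at most 1 read in PS19 Zbp1+/-, or 10.3% (8.43% to 12.4%), against 0.296% and 0.383% for the same count with WT or PS19 as the low library.

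Cdk1 (ENSMUSG00000019942; chromosome 10, 69335146 to 69352938, minus strand), the kinase that drives entry into mitosis, had 13, 6 and 0 reads, at an FPKM of 0.153, 0.0703 and 0. PS19 over WT was 0.461 with an interval of 0.144 to 1.30, so this depth could not show a difference. PS19 Zbp1+/- was at least 3.98-fold lower than WT and at least 1.83-fold lower than PS19 by the limit of 3 reads, and the exact intervals start at 2.80-fold and 1.08-fold lower. Of 350 protein-coding genes whose WT and PS19 counts both lay between 6 and 13, 64 had none in PS19 Zbp1+/-, or 18.3% (14.4% to 22.7%), so a count of 0 there was common at this level.

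The summed microglia, T and NK cell and astrocyte markers were also highest in PS19, as were 7 of 8, 10 of 13 and 4 of 5 of their genes. The exceptions were P2ry12 and Tbx21, highest in WT, and Cd4, Prf1 and Aldoc, highest in PS19 Zbp1+/-. The 8 microglia markers, led by C1qa, summed to an FPKM of 126, 399 and 130, and the T and NK cell markers to 1.04, 5.25 and 0.553, with Ccl5 at 0, 39 and 0 reads. The 5 astrocyte markers, led by Aldoc and Slc1a3, summed to 327, 442 and 407. The 6 endothelial markers, led by Cldn5 and Ly6c1, summed to 52.5, 54.0 and 64.2. They were split: Ly6c1, Flt1, Pecam1 and Cdh5 had their highest value in PS19, and Cldn5 and Tie1 in PS19 Zbp1+/-. The part of these cell types in the Mki67 and Top2a values was not tested.

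Promoters of cycle genes usually carry CCAAT boxes, bound by NF-Y, and a cell cycle homology region (CHR), bound by the DREAM and MuvB complexes that hold such genes off in resting cells. The 250 bases before the RefSeq start site (GRCm38.p6) are shown for the 3 cycle genes, because all 3 hold both kinds of letters while their highest values lay in different libraries, and for Eomes, a neuroblast gene that had no read in PS19 Zbp1+/-. Capitals mark the CCAAT box, searched as CCAAT and, on the other strand, as ATTGG. They also mark the CHR, searched as TTTGAA, its reverse complement TTCAAA, and TTTAAA, which reads alike on both strands. No other letters were counted as a CHR, so TTCGAA, which stands in the Top2a sequence, is unmarked. No match overlaps another in these sequences. They lie at chr7:135716380-135716629 (minus strand), chr11:99024190-99024439 (minus strand), chr10:69352913-69353162 (minus strand) and chr9:118477939-118478188 (plus strand).
Mki67: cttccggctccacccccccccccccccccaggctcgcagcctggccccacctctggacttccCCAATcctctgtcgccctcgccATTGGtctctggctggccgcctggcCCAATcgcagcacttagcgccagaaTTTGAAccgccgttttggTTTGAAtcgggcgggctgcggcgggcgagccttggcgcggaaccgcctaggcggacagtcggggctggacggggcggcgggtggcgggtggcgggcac
Top2a: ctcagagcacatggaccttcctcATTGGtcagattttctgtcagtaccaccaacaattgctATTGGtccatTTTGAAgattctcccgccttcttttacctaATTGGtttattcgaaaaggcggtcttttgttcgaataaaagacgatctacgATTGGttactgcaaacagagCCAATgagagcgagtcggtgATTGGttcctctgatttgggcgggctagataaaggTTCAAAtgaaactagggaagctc
Cdk1: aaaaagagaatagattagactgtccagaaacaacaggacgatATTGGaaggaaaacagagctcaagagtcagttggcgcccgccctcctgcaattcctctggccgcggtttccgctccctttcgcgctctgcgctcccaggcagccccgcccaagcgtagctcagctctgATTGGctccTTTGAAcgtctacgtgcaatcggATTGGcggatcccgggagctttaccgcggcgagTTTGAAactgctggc
Eomes: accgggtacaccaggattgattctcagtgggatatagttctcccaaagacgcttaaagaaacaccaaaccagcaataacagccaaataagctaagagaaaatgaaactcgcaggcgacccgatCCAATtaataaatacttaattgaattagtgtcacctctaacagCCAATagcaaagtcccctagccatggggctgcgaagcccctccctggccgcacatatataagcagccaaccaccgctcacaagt

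Mki67 held 2 CHR matches and 3 CCAAT matches, Top2a 2 and 6, and Cdk1 2 and 3, while Eomes held 0 and 2. Both kinds were not particular to the cycle genes: Sox4 held 1 CHR match and 4 CCAAT matches, and Sox11 held 1 of each. Dcx, with 2 start sites, held 1 CCAAT match at one of them, and Neurod1 held neither. Of 27025 RefSeq promoters of the same length, 25.5% held a CHR match, 34.5% a CCAAT match and 9.0% both. The cycle promoters were shown for holding both, so these shares are background and no comparison. RefSeq promoters were matched for 8 of the 9 members. These matches describe letters, not bound sites.

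Between PS19 and WT, 8 of the 9 members had at least 20 reads over both libraries, and 3 were at least 2-fold apart: Igfbpl1 and Eomes lower in PS19 and Top2a higher. Among 14646 protein-coding genes with as many reads, 7.63% were 2-fold apart, 6.02% higher and 1.60% lower in PS19. That share depended on reads. It was 23.6% for genes with 20 to 200 reads (17.2% higher, 6.41% lower), where 3 of 4 members were apart, and 3.35% above 200 reads, where 0 of 4 were (Dcx, Sox11, Sox4, Neurod1). The median log2 ratio was -0.68 over the 6 neuroblast genes and 0.56 over the 3 cycle genes, beside -0.01 over all genes tested and 0.16 over those with 20 to 200 reads.

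Between PS19 Zbp1+/- and PS19, 7 members had 20 reads, and Igfbpl1, Mki67 and Top2a were at least 2-fold lower. None was 2-fold higher. Over all 14525 genes, 16.9% were apart, 12.6% lower and 4.24% higher. Of the genes apart, 25.1% were higher with this scaling, 14.8% by total reads and 11.3% by TPM. Among genes with 20 to 200 reads 43.8% were apart, 35.0% lower and 8.84% higher, and the 3 members in that range were lower. Above 200 reads 9.54% were apart and 0 of 4 members. The neuroblast median was 0.14 and the cycle median -1.0, with counts below 3 reads set to 3, beside 0.02 over all genes and -0.48 over those with 20 to 200 reads, the range of Igfbpl1, Mki67 and Top2a. The neuroblast median turned to -0.05 with scaling by total reads and to -0.14 with TPM.

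Between PS19 Zbp1+/- and WT, 7 members had 20 reads, and Igfbpl1 and Eomes were at least 2-fold lower. Over 14352 genes 10.8% were apart, 7.27% lower and 3.50% higher. Of those apart, 32.5% were higher with this scaling, 20.6% by total reads and 20.5% by TPM. With 20 to 200 reads, the range of both members, 33.6% were apart, 24.3% lower and 9.35% higher, and above 200 reads 4.46% were apart and 0 of 4 members. The neuroblast median was -0.09 and the cycle median -1.46, beside -0.01 over all genes and -0.29 over those with 20 to 200 reads. The pairs of comparisons share libraries, so their directions are not independent. Members with few reads enter these counts through the library where they are high, and the counts are descriptions.

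**Figure D2:**
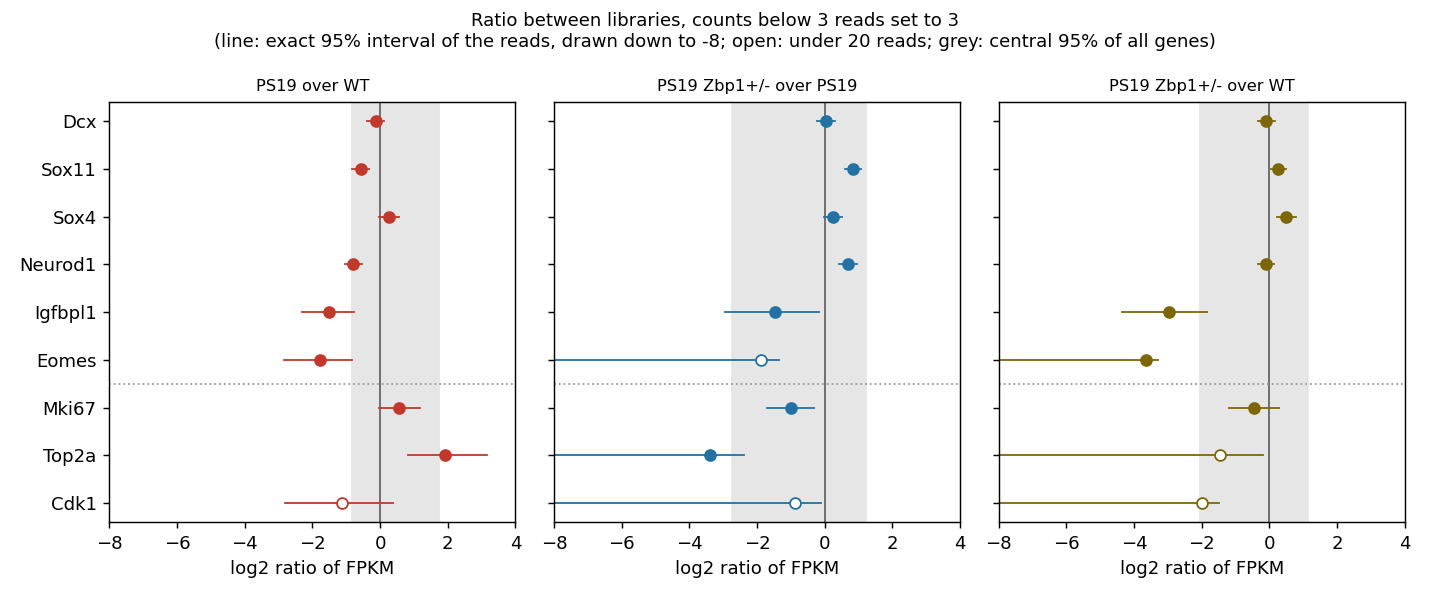
Log2 ratio of FPKM (x axis) for each member in the 3 comparisons, with counts below 3 reads set to 3, the exact 95% interval of the reads as a line, and the central 95% of all protein-coding genes with 20 reads as a grey band; open points have fewer than 20 reads. Igfbpl1 lies at -1.52, -1.46 and -2.98, Dcx within 0.12 of 0 in each, and Top2a at 1.91 in PS19 over WT.

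**Figure D3:**
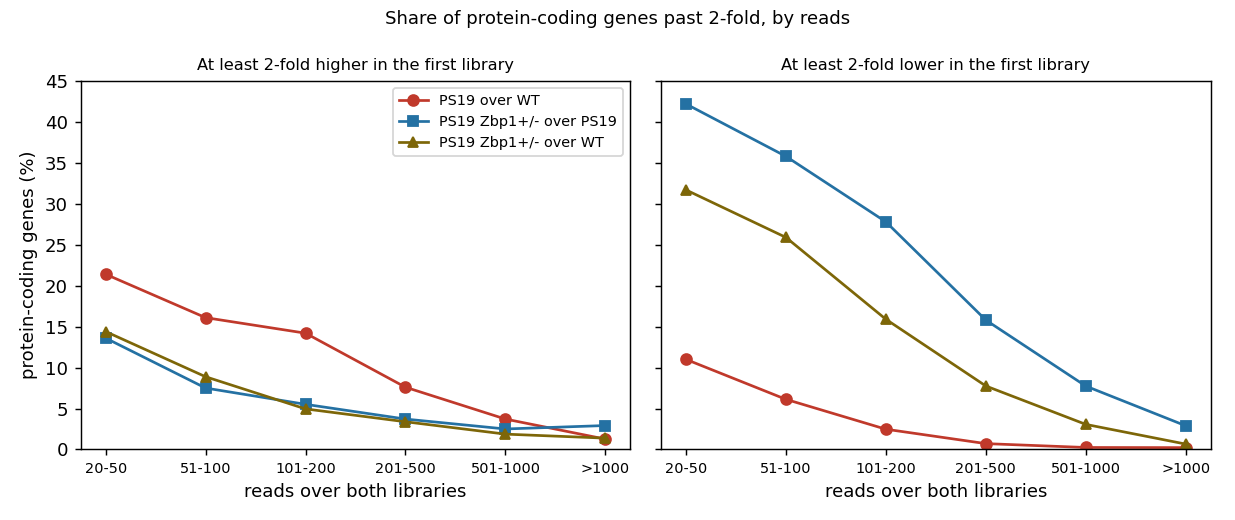
Share of protein-coding genes (y axis, percent) at least 2-fold higher (left) or lower (right) in the first library, by reads over both libraries (x axis). The share lower in PS19 Zbp1+/- than in PS19 goes from 42.2% at 20 to 50 reads to 2.89% above 1000 reads.

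Beyond the members, 20 immature neuron genes were taken as a list. Their summed FPKM was 725, 525 and 898, with PS19 lowest as for Sox11 and Neurod1. The 3 most abundant kept that order: the tubulin Tubb3 had an FPKM of 140, 119 and 205, the microtubule regulator Stmn1 97.5, 77.3 and 116, and the growth cone protein Gap43 95.4, 49.5 and 141. Mature neurons also make these 3, and the summed hippocampal neuron markers had the same low library. Not all of the list followed its sum: 6 of the 20 genes had a higher value in PS19 than in WT. Among them, Prox1, Cd24a, Sema3c and Draxin had their highest value in PS19 and their lowest in PS19 Zbp1+/-.

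Between PS19 and WT the immature neuron median was -0.33 over 20 genes, with Calb2 and Nhlh1 at least 2-fold lower and the axon guidance gene Draxin higher. Nhlh1 and Draxin were among the 3 with 20 to 200 reads, where 6.41% of all genes were lower and 17.2% higher. Calb2 was 1 of 17 above 200 reads, where 3.35% of all genes were apart. Nhlh1, a bHLH factor of newly born neurons, was counted at 26, 4 and 0 reads, the order of Eomes and Igfbpl1. PS19 was 6.51-fold below WT (2.26 to 25.7). The interval of PS19 Zbp1+/- over PS19, 0 to 1.65, included 1, unlike those of Eomes and Igfbpl1. Calb2, the calretinin of immature granule neurons, interneurons and mossy cells, had 937, 286 and 960 reads, 3.28-fold lower in PS19 than in WT (2.87 to 3.76). Draxin had 4, 22 and 0 reads. Calb2 and Nhlh1 thus differed in PS19 Zbp1+/-, where Calb2 was 3.67-fold above PS19 (3.21 to 4.20) and Nhlh1 had no read.

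The immature neuron median of PS19 Zbp1+/- over PS19 was 0.59 over the 19 genes with 20 reads. Gap43, Calb2 and Tac2 were at least 2-fold higher and Draxin lower. Gap43 and Calb2 were 2 of 17 above 200 reads, where 9.54% of all genes were apart. Tac2 and Draxin were the 2 with 20 to 200 reads, where 8.84% of all genes were higher and 35.0% lower. Tac2, a tachykinin precursor, had 50, 32 and 77 reads. Over WT the list median was 0.22, and Nhlh1 alone of 19 genes was 2-fold apart. It was at least 7.95-fold lower by the limit of 3 reads, with an exact interval that starts at 6.02-fold lower. In its range of 20 to 200 reads, 24.3% of all genes were lower. The 7 markers of mature dentate granule neurons, led by C1ql2 and Calb1, summed to an FPKM of 109, 73.5 and 81.7. C1ql2 and Calb1 had their lowest value in PS19, but Stxbp6, Lct, Trpc6 and Dsp had theirs in PS19 Zbp1+/- and Tdo2 in WT. The list median was -0.29 (PS19 over WT), -0.13 (PS19 Zbp1+/- over PS19) and -0.77 (PS19 Zbp1+/- over WT).

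The 13 stem and progenitor genes, several of them shared with astrocytes, had medians of 0.10 (PS19 over WT), -0.26 (PS19 Zbp1+/- over PS19) and 0.11 (PS19 Zbp1+/- over WT) over the 12 with 20 reads. The most abundant, Id4, an inhibitor of bHLH factors, had 1825, 2259 and 730 reads, so PS19 Zbp1+/- was 2.83-fold below PS19 (2.61 to 3.08) and 2.29-fold below WT (2.10 to 2.5). Hopx, a marker of quiescent stem cells, had an FPKM of 29.0, 22.4 and 19.5, and Sox2, the stem cell factor, 22.9, 21.3 and 25.4.

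Between PS19 and WT, Hes5 and Pax6 were at least 2-fold apart in this list, of 12 genes with 20 reads, beside 7.63% of all genes. Hes5 was 1 of 3 with 20 to 200 reads, where 6.41% of all genes were lower and 17.2% higher. Pax6 was 1 of 9 above 200 reads, where 3.35% of all genes were apart. Hes5, a Notch target, had 90, 29 and 129 reads, 3.11-fold lower in PS19 than in WT (2.03 to 4.90) and 4.86-fold above that PS19 value in PS19 Zbp1+/- (3.23 to 7.54). Pax6 had 153, 319 and 155 reads, 2.08-fold above WT in PS19 (1.71 to 2.54). Insm1, a zinc finger factor of progenitors, had 196, 122 and 304 reads, with PS19 Zbp1+/- 2.72-fold above PS19 (2.20 to 3.39). Insm1 was thus highest in the library where Eomes had no read. Tfap2c had 3, 0 and 0 reads.

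Of 20 S phase genes, 19 had 20 reads between PS19 and WT, with a median of 0.21. At least 2-fold higher were Mcm3, Cdt1, Uhrf1 and Tyms, and 0 genes were 2-fold lower. All 4 were among the 11 with 20 to 200 reads, where 17.2% of all genes were higher. The replication helicase subunit Mcm3 had 61, 134 and 52 reads, and the thymidylate synthase Tyms 21, 53 and 24, so that PS19 was the high library as for Top2a. The licensing factor Cdt1, with 16, 39 and 40 reads, and Uhrf1, with 11, 32 and 28, were higher in both PS19 and PS19 Zbp1+/- than in WT. Pcna, the most abundant, was near level at an FPKM of 14.9, 15.2 and 13.5. Ccne1 had 5.07, 4.28 and 6.53, and Mcm4 3.59, 3.84 and 2.68.

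For PS19 Zbp1+/- over PS19 the S phase median was -0.25, with Mcm3, Tyms and Cdc6 at least 2-fold lower and Gins2 higher, all 4 among the 12 with 20 to 200 reads, where 35.0% of all genes were lower and 8.84% higher. Cdc6 had 10, 17 and 6 reads and Gins2 31, 19 and 41. Over WT the median was -0.08 over 18 genes, and Cdt1 and Uhrf1, 2 of the 11 with 20 to 200 reads, were at least 2-fold higher, beside 9.35% of all genes in that range.

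Of 30 G2 and M phase genes, 20 had 20 reads between PS19 and WT, and of these 0 were 2-fold apart, with a median of 0.14. Of the 20, 19 had 20 to 200 reads, where 23.6% of all genes were apart and the median was 0.16. Below 20 reads the counts were small: Ndc80 had 1 read in WT and 9 in PS19, and Melk 0 and 6. The most abundant were the kinase Aurka, with an FPKM of 0.916, 0.937 and 1.10, the spindle protein Nusap1, with 0.771, 0.998 and 0.903, and the kinase Plk1, with 0.712, 0.868 and 0.718. In PS19 Zbp1+/-, 7 of 21 genes were at least 2-fold below PS19 and 3 above it (Ccnb2, Kif23, Hmmr), with a median of -0.27. All 21 had 20 to 200 reads, a range in which 35.0% of all genes were lower, 8.84% higher and the median was -0.48. Against WT, 5 of 18 were lower (Mad2l1, Bub1b, Ccna2, Kif11, Cenpe) and 2 higher (Tpx2, Hmmr), with a median of 0.01, beside 24.3% lower, 9.35% higher and a median of -0.29 for all genes in that range. The counts of genes lower in PS19 Zbp1+/- were thus near the background. The spindle checkpoint kinase Bub1b was counted at 42, 47 and 12 reads and the mitotic cyclin Ccna2 at 32, 36 and 13. Hmmr, a spindle protein, went the other way at 4, 7 and 16 reads. The list summed to 789, 869 and 610 reads, and in PS19 Zbp1+/- 5 of the 30 genes (Pbk, Cenpf, Aurkb, Melk, Bub1) had 0 reads. Cenpf had 18 in WT and 16 in PS19, and the others 6 or fewer in each.

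**Figure D4:**
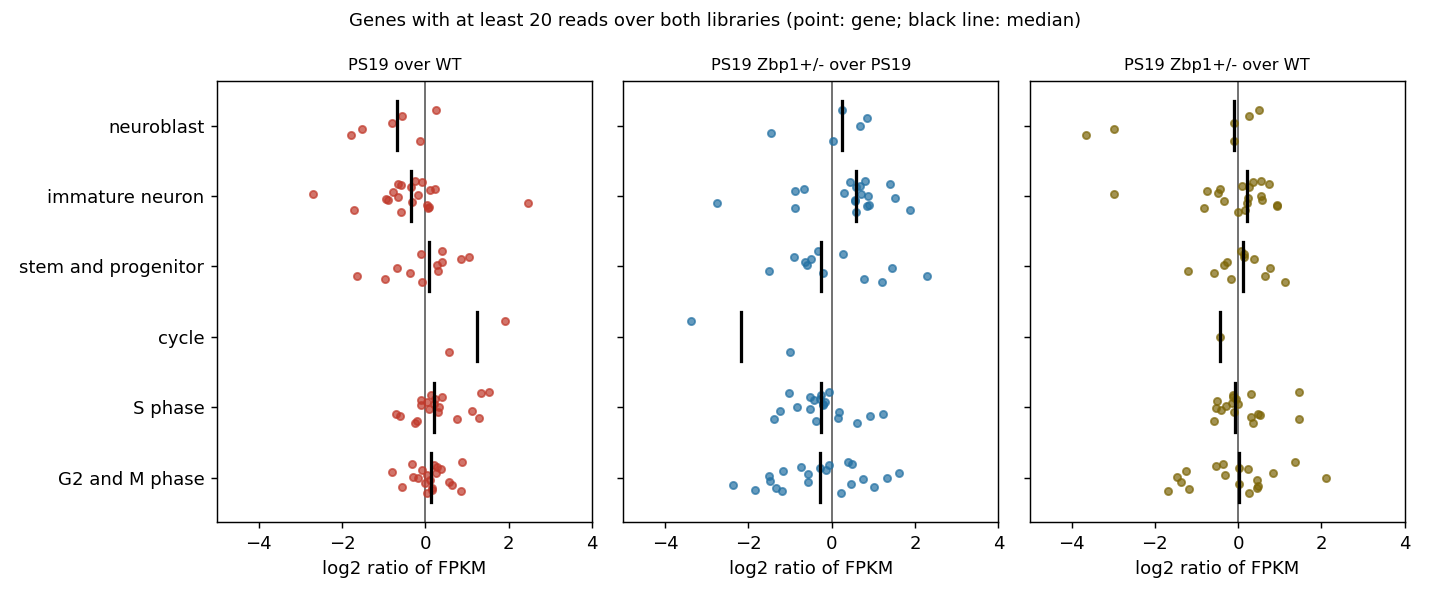
Log2 ratio of FPKM (x axis) for the genes of each list with at least 20 reads over both libraries (points) in the 3 comparisons, with the list median as a black line. The neuroblast and cycle medians over these genes alone (0.24 and -2.19 in PS19 Zbp1+/- over PS19) leave out members under 20 reads. Immature neuron medians lie at -0.33, 0.59 and 0.22, and the G2 and M phase genes spread from lower to higher around medians of 0.14, -0.27 and 0.01.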

How the data were processed

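The authors deposited 1 table of FPKM values, 1 column per library, with gene names, positions and lengths. The unit comes from the table's name and values. The submitters' processing notes name Trim Galore 0.6.5, STAR 2.5.3a, featureCounts 2.0.4 and mm39. Positions equalled those of GENCODE M21 (GRCm38) for 98.3% of 54409 gene IDs, so GRCm38 is given. Strandedness and filters are not given in the sources used here. Each deposited FPKM times length was a whole multiple of 1 step (tolerance 0.01) in 100% of nonzero values, which gave whole reads; the steps imply library sizes of 17253479 (WT), 17287957 (PS19) and 15826984 (PS19 Zbp1+/-), so FPKM carries a size-factor scaling.

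Ratios of FPKM had reads set to at least 3, over protein-coding genes with at least 20 reads in both libraries together; 2-fold counted as apart. Ratio intervals are Clopper-Pearson. No filter chose members. Members and the 15 lists beside them (immature neuron, stem and progenitor, S phase, G2 and M phase and 11 of cell types) were chosen with earlier results of these data known. Genes named are all members and, in each of the 4 related lists, the 3 of highest mean FPKM and those 2-fold apart where 5 or fewer were. Also named are the 2 leading markers of each cell type and some at 0 reads, those nearest Dcx, Calb2 and Zbp1. Trp73, Ebf3, Otx2, Tfap2c, P2ry12, Cd4, Xist, Ddx3y, the endothelial genes beyond the top 2 and the G2 and M phase genes beyond the top 3 were chosen after their values were seen. Some genes that this rule names are not reported here. At 90% identity over 100 bases, transcripts of 2 members matched another gene: Neurod1 (Cerkl, which overlaps it) and Mki67 (Gm44521). Read recovery, ratios and intervals were checked on simulated reads. Alternatives were scaling by total reads or to TPM, pseudocounts of 1 and 0.1, a floor of 1 read, at least 50 reads, no filter, and 1.5-fold. Software was BLAST 2.17.0, scipy 1.17.1, numpy 2.4.6 and pandas 2.3.3 under Python 3.11.15, with matplotlib 3.10.9 for plots.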

Additional observations from a re-analysis of the deposited data

How the results depend on the processing

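On the log2(FPKM + 1) scale, which compresses weakly expressed genes, 0 members were 2-fold apart in each of the 3 comparisons (against 3, 3 and 2), the neuroblast median of PS19 over WT was -0.40, and the cycle medians of PS19 Zbp1+/- were -0.20 over PS19 and -0.07 over WT. With log2(FPKM + 0.1) the latter was -0.56. With a floor of 1 read the cycle medians of PS19 Zbp1+/- were -2.46 over PS19 and -3.05 over WT, so the floor sets their size. With TPM the neuroblast medians were -0.55 (PS19 over WT), -0.14 (PS19 Zbp1+/- over PS19) and -0.25 (PS19 Zbp1+/- over WT), and with total reads -0.05 and -0.25 for the last 2 of these; the median of all genes moved by these scalings to -0.27 and -0.17 in PS19 Zbp1+/- over PS19 and to -0.16 over WT. The share of higher genes among those apart moved likewise, from 25.1% to 11.3% (TPM) and 14.8% (total reads) over PS19, and from 32.5% to 20.5% and 20.6% over WT. At least 50 reads left 1 member apart in each comparison of PS19 Zbp1+/-, no filter gave 4 over WT, and 1.5-fold gave 5 over PS19. Of 135 single-member values under the 5 scale or floor settings, 116 stayed within the counting interval, 19 did not, and 3 changed sign (Dcx and Sox4, given above); no value past 2-fold changed sign. With 1 library per genotype no library could be left out, and no paired analysis was possible because each group has a single library. Depth limits Cdk1, Top2a, Eomes and Igfbpl1 most.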
